A study of Mus musculus with 10 samples.

Results

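Dlk1, Meg3, Rian and Mirg are neighbouring imprinted genes on mouse chromosome 12. They were followed here through every probe set of the array that carries one of these symbols in the platform annotation, which gave 18 of 25958 probe sets (4 of 12366 genes). Of these, 11 carry Meg3, 4 carry Rian, 2 carry Mirg and 1 carries Dlk1. Each probe set was compared between 5 control livers and 5 mutant livers, with 1 array per animal. The mutants carried 2 loxP-flanked copies of Dicer1 and a transgene in which Afp drives Cre recombinase, a gene of the fetal liver. The genotype of the controls is not given beyond that name, and all mice had a mixed strain background, were 28 days old and had fasted for 5 hours. Dicer1 encodes the enzyme that cuts microRNA precursors into mature microRNAs, so the comparison asks how liver transcripts differ when that step is lost in cells of the hepatoblast lineage. Whole liver was assayed, which also holds cells in which Afp-Cre is not active. In such bulk RNA, more expressing cells and more RNA per cell cannot be told apart.

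In an imprinted cluster only 1 parental chromosome transcribes each gene. Dlk1 is transcribed from the paternal chromosome and encodes a membrane protein with EGF-like repeats that marks hepatoblasts, the progenitor cells of the fetal liver, and is switched off in adult hepatocytes. Meg3, Rian and Mirg are long noncoding RNAs transcribed in the same direction from the maternal chromosome. Their introns and exons hold many small nucleolar RNAs and microRNAs, so part of what they encode depends on Dicer1 for its last processing step. These small RNAs were not measured on the arrays.

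The letters at the start sites of Dlk1 and Meg3 are shown because the probe sets of these 2 genes gave the smallest and the largest differences of the cluster. Each window runs from 250 bases before to 50 bases after an annotated start (RefSeq, GRCm38.p6, plus strand, chr12:109540746-109541045 for Meg3 and chr12:109452573-109452872 for Dlk1). Capitals mark the motifs searched for on both strands.
Meg3: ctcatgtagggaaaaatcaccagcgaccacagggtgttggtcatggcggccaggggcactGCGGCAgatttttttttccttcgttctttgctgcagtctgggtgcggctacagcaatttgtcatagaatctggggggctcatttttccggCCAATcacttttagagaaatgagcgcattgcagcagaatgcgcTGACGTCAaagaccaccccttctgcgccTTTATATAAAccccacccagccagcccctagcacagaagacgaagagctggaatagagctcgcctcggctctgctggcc
Dlk1: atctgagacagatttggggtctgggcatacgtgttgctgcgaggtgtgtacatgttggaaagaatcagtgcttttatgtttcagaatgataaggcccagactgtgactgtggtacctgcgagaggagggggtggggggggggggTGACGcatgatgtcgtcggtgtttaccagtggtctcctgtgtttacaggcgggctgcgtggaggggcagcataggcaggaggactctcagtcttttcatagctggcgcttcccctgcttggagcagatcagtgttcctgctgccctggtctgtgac

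The Meg3 window held the cyclic AMP response element core TGACG on both strands, in 2 overlapping copies that start 57 and 54 bases before the start site. It also held TATAAA on both strands at 29 and 25 bases before the start site, CCAAT, and 1 copy of TGCCGC, the core of the motif of the imprint-keeping protein ZFP57, on the opposite strand. The Dlk1 window held TGACG once. Of 32851 windows of the same length, 20.8% held TGACG, 13.6% held TATAAA, 37.4% held CCAAT and 11.6% held TGCCGC on either strand. The SP1 box GGGCGG (35.7% of windows) and both MEF2 motifs searched (0.164% and 0.110% of windows) were found in neither window. The windows held 13 CG dinucleotides for Meg3 and 9 for Dlk1, against a median of 7 over all windows. The windows of Rian and Mirg held 0 and 10, and a second annotated start of Meg3 held 1. Such matches describe letters and not bound sites.

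RefSeq places 61 microRNA genes between Dlk1 and Dio3, the genes at the ends of the imprinted domain. Of these, 2 lie within the span of Meg3, 3 within that of Rian and 10 within that of Mirg, and 11 small nucleolar RNA genes lie within Rian. The 113 mature names in the domain have 104 different seeds (bases 2 to 8, in capitals), and 9 seeds are shared by several names. The examples below show what the 3 noncoding transcripts carry, in the order Meg3 (miR-770), Rian (miR-370) and Mirg (the others, of which miR-453 and miR-496a share a seed).
mmu-miR-770-5p: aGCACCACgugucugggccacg
mmu-miR-370-3p: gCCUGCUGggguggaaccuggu
mmu-miR-453: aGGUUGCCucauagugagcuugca
mmu-miR-496a-5p: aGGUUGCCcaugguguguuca
mmu-miR-409-3p: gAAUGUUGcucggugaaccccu
mmu-miR-410-3p: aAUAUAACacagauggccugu

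The deposited values are log2 signals per probe set, and array medians ran from 6.41 to 6.68. The 25th percentile of all values, 3.60, is called the floor here and is a convention, not a detection limit. Dicer1 itself ran from 7.99 to 8.10 in controls and from 5.42 to 5.94 in mutants on one probe set, and from 7.91 to 8.18 and from 6.97 to 7.20 on the other, with no overlap. The transcripts were those of liver in both groups: the mean of 15 hepatocyte markers ran from 15.12 to 15.31 in controls and from 15.03 to 15.24 in mutants. On the first principal component, which held 46.8% of the variance, controls lay between -45.8 and -25.6 and mutants 1 to 4 between 33.4 and 62.2. Mutant 5 lay at -15.4, although its Dicer1 signal (5.84 and 6.98) was as low as that of the other mutants. Over the 1053 probe sets that were called without mutant 5 with a difference of at least 1, its median share of the other mutants' mean change was 0.277. Choosing these probe sets by their change in mutants 1 to 4 can by itself lower that share. Because mutant 5 lay apart from the other mutants on the first principal component, the main results are also given without this array.

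The noncoding genes of the cluster were higher in mutant liver, and Dlk1 was not called. A probe set was called at an adjusted p under 0.05 by limma, with Benjamini-Hochberg adjustment over all 25958 probe sets. All 11 probe sets of Meg3, all 4 of Rian and both of Mirg were called higher, 17 of 18 in all, and 0 were called lower. Over the whole table, 5.80% of probe sets were called higher and 7.39% lower. Every mutant lay above every control on 13 of the 18, against 5.00% of all probe sets. On the log2 scale, mutant minus control was 0.44 to 7.30 over the 18, the median was 4.12, and the median over all probe sets was -0.01.

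**Figure D1:**
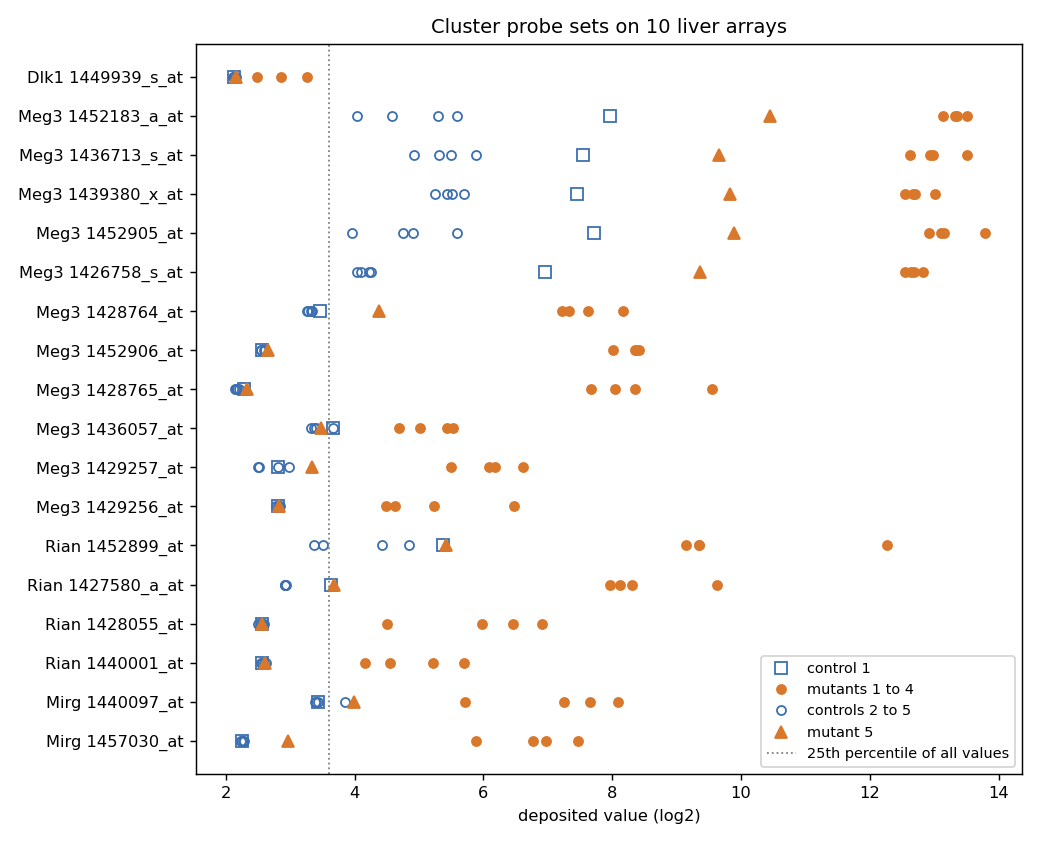
Deposited log2 value (horizontal axis) of each of the 18 probe sets of the cluster (rows) on the 10 arrays; open blue symbols are controls, filled orange symbols are mutants, and the dotted line is the 25th percentile of all values (3.60). Mutants 1 to 4 lie far to the right of the controls in every row but that of Dlk1, and mutant 5 lies between the groups on the upper 5 Meg3 rows and next to the controls on most of the others.

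Meg3, the long noncoding RNA at the start of the maternal transcripts, had the largest differences. On 5 of its probe sets the controls were above the floor, and these gave the clearest record of each animal. On 1452183_a_at the controls read 7.97, 5.59, 5.29, 4.58 and 4.04 (replicates 1 to 5) and the mutants 13.13, 13.50, 13.32, 13.36 and 10.45. The mutants were all higher, mutants 1 to 4 lay close together, and control 1 stood above the other controls. The difference was 7.26 (SE 0.82, 95% interval 5.40 to 9.11, adjusted p = 0.00415 by limma). This is 153-fold if each log2 unit is taken as a doubling of RNA.

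On all 5, mutant 2 read highest and mutant 5 lowest among mutants, and control 1 highest and control 5 lowest among controls. On 1426758_s_at the controls read 6.95, 4.09, 4.25, 4.22 and 4.03 and the mutants 12.54, 12.83, 12.64, 12.68 and 9.36. This was the largest difference of the cluster, 7.30 (SE 0.81, adjusted p = 0.00391), and control 1 again stood apart. On 1452905_at the controls read 7.72, 4.90, 4.76, 5.59 and 3.96 and the mutants 13.10, 13.79, 12.91, 13.14 and 9.88, a difference of 7.18 (SE 0.87). On 1436713_s_at the difference was 6.51 (SE 0.76) and on 1439380_x_at it was 6.28 (SE 0.66). These 5 differences ranked 3 to 7 among the increases of all 25958 probe sets, and their adjusted p ran from 0.00307 to 0.00500. An s or x in a probe set name marks probes that can match several transcripts.

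The remaining 6 Meg3 probe sets were dim in controls, with means from 2.19 to 3.49, below the floor. On 1452906_at the controls read 2.56, 2.55, 2.60, 2.59 and 2.54 and mutants 1 to 4 read 8.35, 8.02, 8.42 and 8.37, while mutant 5 read 2.66. On 1428765_at the controls ran from 2.14 to 2.29, mutants 1 to 4 read 7.67, 9.55, 8.04 and 8.35, and mutant 5 read 2.33. Both probe sets thus split the mutants into 4 high arrays and 1 at the level of the controls. The differences were 4.59 (SE 1.05, adjusted p = 0.0243) and 4.99 (SE 1.16, adjusted p = 0.0262). On 1428764_at mutant 5, at 4.38, lay above the controls (3.27 to 3.47) but below the other mutants (7.23 to 8.17), and the difference was 3.61 (SE 0.61, adjusted p = 0.0106).

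The 3 weakest Meg3 probe sets differed by 2.82 (SE 0.54), 1.91 (SE 0.55) and 1.35 (SE 0.35), with adjusted p of 0.0152, 0.0496 and 0.0371. On 1429256_at and 1436057_at mutant 5, at 2.82 and 3.48, lay inside the range of the controls, so the groups overlapped. With control signal below the floor, the size of these differences depends on how background was treated before deposit, and they are no measure of how far single parts of the transcript rose. With values below the floor raised to it, 1429256_at and 1436057_at lost their call (adjusted p = 0.116 and 0.0560).

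Rian, the noncoding RNA that hosts small nucleolar RNAs, was higher on all 4 of its probe sets. On 1452899_at the controls read 5.37, 4.84, 3.50, 4.43 and 3.36 and the mutants 9.15, 12.26, 9.35, 9.34 and 5.41. Mutant 2 stood highest, and mutant 5 lay only just above control 1. The difference was 4.80 (SE 1.07, adjusted p = 0.0228). On 1427580_a_at the controls read 3.64, 2.92, 2.94, 2.92 and 2.91 and the mutants 8.13, 9.62, 8.30, 7.97 and 3.68, a difference of 4.47 (SE 0.94, adjusted p = 0.0195). Here too control 1 and mutant 5 met in the gap between the groups.

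The other probe sets of Rian ordered the mutants differently. On 1428055_at the controls ran from 2.51 to 2.59 and the mutants read 6.47, 4.50, 6.91, 5.98 and 2.57. Mutant 2, the highest on the 2 brighter probe sets, was here the lowest of mutants 1 to 4. On 1440001_at the controls ran from 2.55 to 2.62 and the mutants read 5.22, 4.54, 5.70, 4.15 and 2.61. The differences were 2.73 (SE 0.73, adjusted p = 0.0404) and 1.87 (SE 0.49, adjusted p = 0.0387), and mutant 5 lay within the controls on both. All controls lay below the floor on these 2 probe sets, as did 4 of 5 on 1427580_a_at. The size of the differences on these 3 therefore depends on how background was treated before deposit. The probe sets of 1 gene therefore agreed on which 4 mutants were high but not on their order.

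Mirg, the host of the last group of microRNAs of the domain, was higher on both probe sets. On 1457030_at the controls read 2.25, 2.24, 2.28, 2.26 and 2.23 and the mutants 5.88, 6.78, 7.46, 6.98 and 2.97, a difference of 3.76 (SE 0.74, 95% interval 2.09 to 5.44, adjusted p = 0.0161). On 1440097_at the controls read 3.43, 3.43, 3.40, 3.38 and 3.85 and the mutants 5.71, 7.25, 8.08, 7.65 and 3.99, a difference of 3.04 (SE 0.70, adjusted p = 0.0256). Both probe sets put the mutants in 1 order, with mutant 3 highest, then 4, 2, 1 and 5. On both, mutant 5 lay above every control, by 0.69 and 0.14. All controls on 1457030_at and 4 of 5 on 1440097_at lay below the floor, as did mutant 5 on 1457030_at. The sizes of these differences and gaps therefore depend on how background was treated before deposit.

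Dlk1, the protein-coding gene of the cluster, was near the bottom of the scale in every animal. Its probe set 1449939_s_at read 2.13, 2.13, 2.17, 2.15 and 2.12 in controls and 2.48, 3.26, 2.14, 2.85 and 2.16 in mutants. All 10 values lay below the floor. Mutants 1, 2 and 4 stood above every control, and mutants 3 and 5 lay within the range of the controls. The difference was 0.44 (SE 0.20, 95% interval -0.01 to 0.89) and was not called (adjusted p = 0.184 by limma, and p = 0.0397 unadjusted by a two-sided exact permutation test). It was 0.27 without mutant 2 (adjusted p = 0.274), the highest array, and 0.55 without mutant 5 (adjusted p = 0.0887), and it was called in 0 of the 10 fits that left out 1 array. With values below the floor raised to it, Dlk1 has no difference left to test. Mutant 3, which had the highest Mirg signal, read 2.14 for Dlk1.

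**Figure D2:**
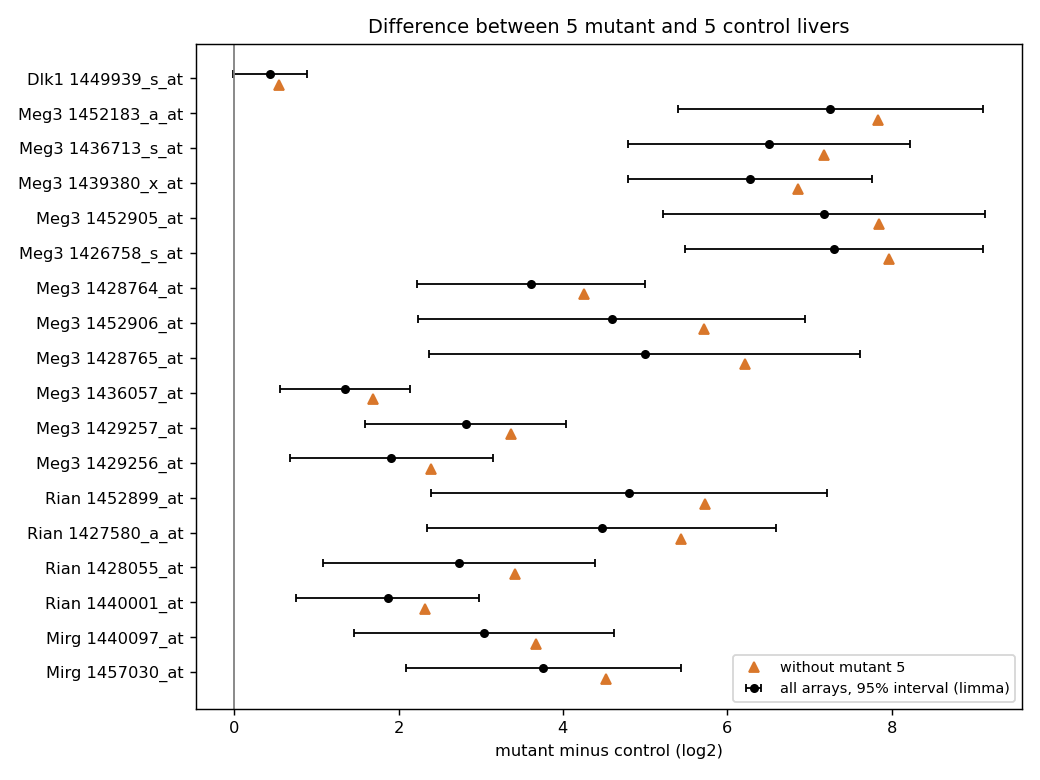
Difference between mutant and control livers (log2, horizontal axis) for each probe set, with the 95% interval of limma over all 10 arrays (black) and the difference without mutant 5 (orange triangles). The 5 bright Meg3 probe sets lie between 6.28 and 7.30, the other noncoding probe sets between 1.35 and 4.99, and the interval of Dlk1 reaches to -0.01.

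In the exact permutation test, 13 of the 18 probe sets gave the smallest p that 5 arrays against 5 allow (0.00794, two-sided, unadjusted). They are the 13 on which every mutant lay above every control, so this restates that count and adds no support. On 1452906_at, 1428765_at, 1452899_at and 1427580_a_at mutant 5 lay above the highest control by only 0.04 to 0.05. Of the 17 calls by limma, 8 held in each of the 10 fits that left out 1 array: 7 of Meg3 and 1457030_at of Mirg. The number called was lowest, at 8, without mutant 4, was 9 without control 3, control 4 or mutant 3, 10 without control 1, control 5, mutant 1 or mutant 2, and 11 without control 2. It was 17 without mutant 5. No Rian probe set held in all 10 fits. The brighter ones, 1452899_at and 1427580_a_at, held in 4 and 9 of them, with adjusted p of up to 0.0569 and 0.0503.

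Mutant 5 had the lowest mutant value on all 17 noncoding probe sets. On the 5 bright Meg3 probe sets it read from 9.36 to 10.45, against 12.54 to 13.79 in mutants 1 to 4 and 3.96 to 7.97 in controls. It was thus 2.88 to 3.35 below the mean of the other mutants and 2.11 to 2.48 above the highest control. As a share of the other mutants' mean change on the log2 scale this was 0.533 to 0.633. On the 6 dim Meg3 probe sets the share was -0.004 to 0.247, on those of Rian 0.004 to 0.195, on those of Mirg 0.134 and 0.159, and for Dlk1 0.040. On most of these probe sets all controls lay below the floor, so their shares cannot be set against those of the bright Meg3 probe sets. For Dicer1 the share was 0.950 and 1.09.

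Leaving mutant 5 out raised every difference of the cluster. That of 1452183_a_at became 7.83, of 1452899_at 5.73 and of 1457030_at 4.52 (adjusted p = 0.000404, 0.00130 and 0.000120). Mutant 5 read below the mutant mean on every probe set of the cluster. The rise was therefore fixed by the choice of array and adds no support.

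**Figure D3:**
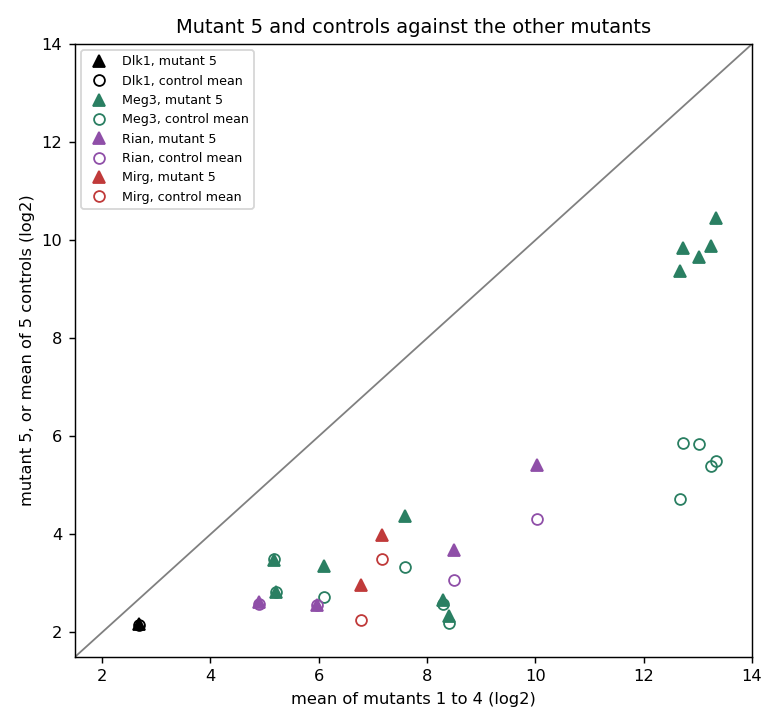
Value in mutant 5 (triangles) and mean of the 5 controls (open circles) against the mean of mutants 1 to 4, in log2, for the 18 probe sets coloured by gene; the line marks equal values. On the 5 bright Meg3 probe sets mutant 5 (9.36 to 10.45) lies well above the control mean (4.71 to 5.87), and on most others the triangle lies on or just above the circle.

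Control 1 was the other array that stood apart. On the 5 bright Meg3 probe sets it read 6.95 to 7.97, against 3.96 to 5.88 in controls 2 to 5, which is 1.99 to 3.09 above their mean. It was also the highest control on the 2 brighter Rian probe sets, by 1.34 and 0.72 above the mean of the other controls. On the 6 dim Meg3 probe sets the excess was -0.01 to 0.23. Control 1 also had the highest control signal of Igf2, the imprinted fetal growth factor on another chromosome, at 11.34 against 2.69 to 6.52, and of Igf2r (8.96 against 8.40 to 8.82) and the fetal serum protein gene Afp (8.13 against 5.43 to 7.76). It was not the highest for Grb10 (7.23, controls 6.96 to 7.39) or Peg3 (8.14, controls 8.14 to 8.96), where it was the lowest. With both control 1 and mutant 5 left out, a comparison added after these arrays were seen, 17 probe sets were called and the difference on 1452183_a_at was 8.45 (adjusted p = 5.67e-05). On that probe set control 1 was the highest control and mutant 5 the lowest mutant. The larger difference was therefore fixed by the choice of arrays and adds no support.

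The genes on either side of the cluster differed far less. Of the 20 nearest measured genes, 10 on each side, 3 were called higher and 2 lower in the fit over 12366 genes, where 8.62% of all genes were called higher and 11.5% lower, and where every mutant lay above every control for 6.17%. These neighbours differed by -0.54 to 0.85, at a median of -0.01. On the Dlk1 side, Wdr25 (-0.39, SE 0.21) was not called, Wars, the tryptophan transfer RNA ligase, fell by 0.36 (SE 0.09, adjusted p = 0.0282), and Slc25a47, a mitochondrial carrier of hepatocytes, differed by -0.08 (SE 0.12). Between Dlk1 and Dio3 the noncoding 3110009F21Rik differed by 0.33 (SE 0.20, adjusted p = 0.294).

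On the Dio3 side the next measured gene, Ppp2r5c, a regulatory subunit of protein phosphatase 2A, fell by 0.54 (SE 0.09, adjusted p = 0.00745). The noncoding Gm19605 (-0.06, SE 0.05) and the dynein heavy chain gene Dync1h1 (0.16, SE 0.14) were not called. Hsp90aa1, a chaperone, rose by 0.85 (SE 0.18, adjusted p = 0.0151), and Tecpr2 and the corepressor gene Rcor1 rose by 0.43 (SE 0.09) and 0.40 (SE 0.11). Without control 1, 4 or 5 or mutant 1, 2 or 3, 1 neighbour was lower, and without mutant 5, 3 were higher and 3 lower.

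**Figure D4:**
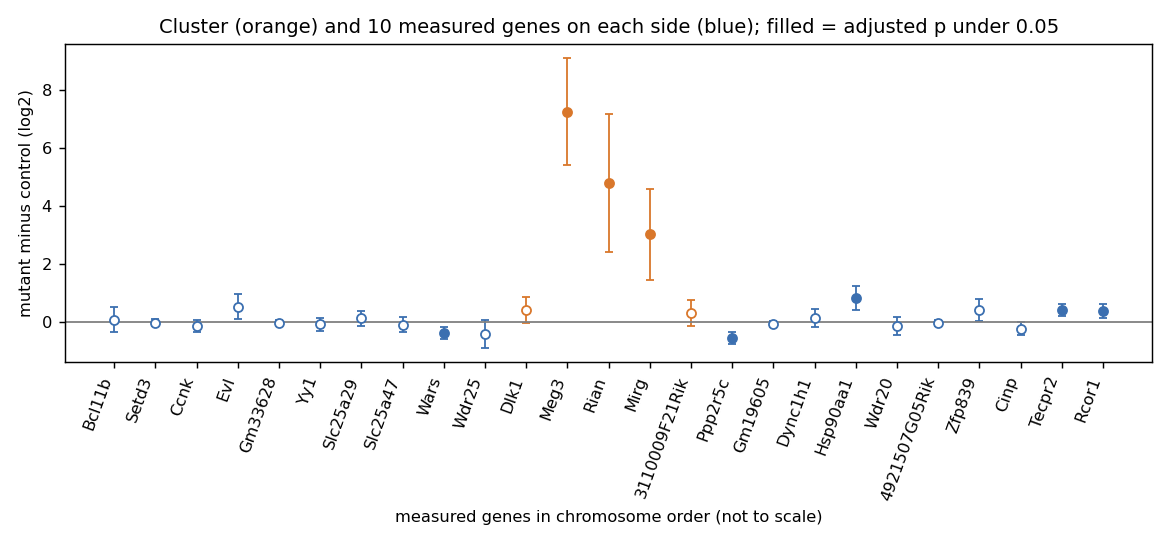
Difference between mutant and control (log2) with its 95% interval for measured genes in chromosome order, not to scale; orange marks the stretch from Dlk1 to Dio3, blue the 10 measured genes on each side, and filled points were called. Meg3 (7.26), Rian (4.80) and Mirg (3.04) stand out from neighbours that lie between -0.54 and 0.85.

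Imprinted genes elsewhere in the genome also differed. Of 29 measured members of a list, 11 were higher, 2 were lower and 16 did not pass, with a median of 0.20 against -0.01 over all genes. Over all genes, 8.62% were called higher and 11.5% lower, so the count of lower members is not above that share. The list was drawn up with earlier results of these arrays known. Peg3, a paternally expressed zinc finger gene, read 8.14, 8.52, 8.30, 8.90 and 8.96 in controls and 11.15, 12.24, 10.63, 12.04 and 9.23 in mutants. All mutants were higher, with mutant 5 again the lowest, and the difference was 2.49 (SE 0.52, adjusted p = 0.0140). Grb10, an adaptor that restrains insulin signalling, rose from 6.96 to 7.39 in controls to 8.71 in mutant 5 and 10.86 to 12.45 in the other mutants. Cdkn1c, a cell cycle inhibitor, ran from 5.88 to 6.11 in controls and from 7.10 to 9.22 in mutants, and Igf2r, which clears IGF2, from 8.40 to 8.96 and from 9.31 to 10.84. Gnas and Mcts2 were the 2 that fell, by 0.31 and 0.92. Without mutant 4, 6 members of the list were higher, and without control 1, 3 or 4 or mutant 2, 7 were. Without mutant 5, 12 were higher and 2 lower.

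Genes that set or read imprints were mostly not called. Of 18 measured, 4 were higher, 1 was lower and 13 did not pass, with a median of 0.08, and without mutant 5, 5 were higher and 1 lower. In the same fit 8.62% of all genes were called higher and 11.5% lower, so the lower count is not above that share. The de novo DNA methyltransferase Dnmt3a ran from 7.92 to 8.12 in controls and from 8.62 to 9.23 in mutants, a rise of 0.93 (SE 0.11, adjusted p = 0.00385). Dnmt3b rose by 0.92 (SE 0.20), the Polycomb partner Jarid2 by 0.46 (SE 0.11) and the methylcytosine oxidase Tet2 by 0.35 (SE 0.08). Mbd3, of the NuRD corepressor complex, fell by 1.04 (SE 0.22, adjusted p = 0.0154), from 7.60 to 7.94 in controls to 6.30 to 6.79 in mutants 1 to 4, while mutant 5 read 7.60.

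DLK1 is a relative of the Notch ligands. Of 28 measured genes of the Notch pathway, 3 were higher, 2 were lower and 23 did not pass, with a median of 0.04. These counts lie near the 8.62% of all genes called higher and the 11.5% called lower, so they show nothing particular to the pathway. Without mutant 5, 3 were higher and 3 lower. The membrane proteases Adam10 and Adam17, of which ADAM17 also sheds DLK1, were both higher: Adam10 by 1.06 (SE 0.15, adjusted p = 0.00617), and Adam17 by 0.83 (SE 0.16, adjusted p = 0.0115). Maml1, a coactivator of Notch, rose by 0.51 (SE 0.12). Psenen, a subunit of gamma-secretase, fell by 0.35 (SE 0.06), and Rfng, a sugar transferase that modifies Notch, fell by 1.21 (SE 0.27). Psen2 (0.45, SE 0.14) had an adjusted p of 0.0534.

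Among genes of the MEF2 and CREB transcription factor families, 1 of 11 measured was higher, Mef2d, by 0.89 (SE 0.23, adjusted p = 0.0289). This too is near the share of all genes, 8.62%. Without control 2 or 3 or mutant 2, 3 or 4, 0 were called, and without mutant 5 there were 2. Of 12 genes tied to fat cell formation, which DLK1 restrains in fat precursors, 2 were higher, beside 8.62% of all genes: Plin2, a lipid droplet coat protein (0.62, SE 0.17), and the lipoprotein lipase Lpl (0.76, SE 0.23, adjusted p = 0.0484). Without any single array, 1 or 0 were called. Of 9 factors that include the fetal gene repressors Zhx2 and Zbtb20, 0 were called by limma and 2 had an unadjusted p under 0.05; the smallest adjusted p was that of the pioneer factor Foxa1 (0.68, SE 0.22, adjusted p = 0.0550). Without mutant 5, 2 were called higher, and without control 5, 1 was. Of 7 genes of thyroid hormone action, the pathway of DIO3, 0 were called and 0 had an unadjusted p under 0.05. Dio3 itself was not among the measured genes, and 2 of the 7, Thrb and Dio2, had means below the floor in both groups.

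**Figure D5:**
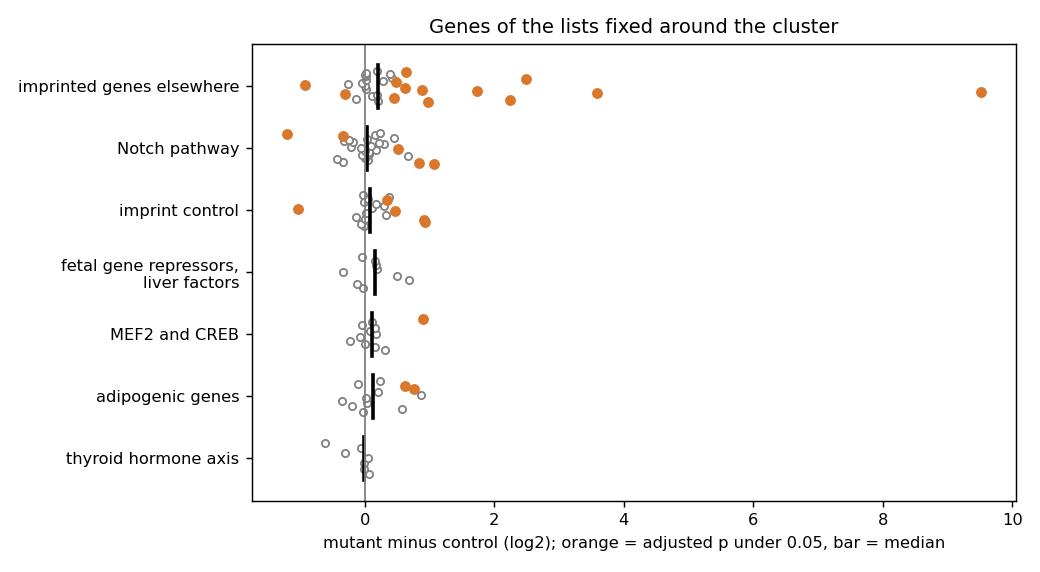
Difference between mutant and control (log2) of each measured gene (points) in 7 lists around the cluster; orange points were called by limma at an adjusted p under 0.05 and black bars are list medians. The imprinted genes elsewhere reach 9.52 (Igf2), and the list medians lie between -0.02 and 0.20.

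Some lists of markers of other cells were also higher in mutants. Of 13 measured hepatoblast and fetal liver markers, 7 were higher and 0 lower, beside 8.62% and 11.5% of all genes. Averaged over the list, controls read 5.04 to 5.90 and mutants 6.90 to 7.93, lowest in mutant 5. Igf2 and Peg10 are in this list and in that of imprinted genes, and 3 of the 13 lay below the floor in both groups. Tspan8, a tetraspanin, ran from 3.46 to 3.64 in controls and from 4.14 to 5.12 in mutants. Afp, the fetal serum protein, read 8.13, 7.76, 6.93, 5.43 and 7.30 in controls and 14.17, 14.91, 13.17, 14.30 and 8.50 in mutants, and Gpc3, a surface proteoglycan, ran from 3.52 to 4.86 and from 5.84 to 8.76. Epcam, a marker of progenitor and bile duct cells, differed by -0.04 (SE 0.05). Dlk1 was left out of this list as a member of the cluster.

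Of 15 stellate and mesenchymal markers, 6 were higher (list means 8.62 to 9.01 in controls and 9.09 to 9.53 in mutants), and of 13 Kupffer cell and macrophage markers, 9 were (9.11 to 10.11 and 10.10 to 10.67, with mutant 5 at 10.23). The stellate count was 3 without mutant 4 and 8 without mutant 5. The Kupffer count was 4 without control 1 or mutant 1, 2 or 4, 5 without control 5 and 7 without mutant 5. Pdgfrb, Reln and Lum, the 3 of the stellate and mesenchymal list with the smallest p, rose by 0.57, 0.72 and 1.13. The 9 that were not called included Lrat (0.29, SE 0.21), Hgf (0.31, SE 0.34) and Acta2 (0.36, SE 0.26). Ngfr, also not called, differed by -0.14 (SE 0.21). Dcn, 1 of the 6 that were higher, is also counted in the list of imprinted genes. Of 14 endothelial markers 2 fell (8.78 to 9.19 and 8.65 to 8.89), and of 6 lymphocyte markers 1, Ptprc, rose (4.34 to 4.64 and 4.35 to 4.83). Among all genes, 8.62% were called higher and 11.5% lower. The endothelial and lymphocyte counts lie near these shares and show nothing particular to those cells. The endothelial count was 1 without control 3, 4 or 5 or mutant 1, 3 or 4 and 3 without mutant 5. The lymphocyte count was 1 without control 5, mutant 3 or mutant 5 and 0 without any other single array. Of 7 bile duct markers (4.28 to 4.37 and 4.45 to 4.97), 6 erythroid (5.78 to 6.40 and 5.41 to 6.08) and 15 hepatocyte markers, 0 were called by limma, with 1, 0 and 1 at an unadjusted p under 0.05. Of these markers, 2 of bile duct, 1 erythroid and 2 lymphocyte had means below the floor in both groups. The part of these cells in the signal of the cluster was not tested.

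The genes with profiles most like Meg3 were taken among 6358 genes above the median signal, by the root mean square distance between profiles centred and scaled over the 10 arrays. The nearest was Aak1, an endocytic kinase, at a distance of 0.188, with a difference of 0.94 (SE 0.12). It read 7.73 in control 1 and 7.36 to 7.49 in the other controls, 8.02 in mutant 5 and 8.42 to 8.60 in the other mutants. Next were Dennd5b, the endoplasmic reticulum GTPase Atl3, the protein phosphatase 2A scaffold subunit Ppp2r1a, the HIF1A hydroxylase gene Hif1an, the succinyl-CoA ligase subunit Suclg2, Rabgap1l and Rabl3, at 0.232 to 0.261. Their differences, from 0.54 to 1.17, were small beside that of Meg3.

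For Rian the nearest were Gfpt1, the first enzyme of hexosamine synthesis (0.150), the mitochondrial isocitrate dehydrogenase Idh2 (0.174), Prkacb (0.201) and Alg2 (0.229). For Dlk1 the nearest was Smad7, an inhibitor of TGF-beta signalling (0.196), which read 7.67, 8.66, 7.27, 8.01 and 7.32 in the mutants and was not called (0.60, SE 0.25, adjusted p = 0.117). Cttnbp2nl, Arvcf and Prrc2b followed, at 0.268 to 0.331. Within the cluster, Rian lay at 0.383, Mirg at 0.481 and Dlk1 at 0.794 from Meg3, each on its probe set with the highest mean. These distances largely reflect the difference between the groups and are given as a description.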

How the data were processed

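Total RNA of 10 livers (100 ng each) was amplified and labelled with biotin, per the labels' protocols. The deposited table gives 1 log2 value for each probe set and array. That the scale is log2 was read from the values (0.27 to 16.65, near-equal distributions on all arrays), while no source used here names the background correction, probe summary or normalization. Groups and replicate numbers came from the sample titles, and no batch is named. After 37 control probe sets were left out, 25958 were tested, of which 21613 carried 1 gene symbol, 638 several and 3707 none. For gene lists and neighbours, each of 12366 genes was represented by its probe set with the highest mean. Gene order came from a gene table of assembly GRCm38.p6.

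The test was the moderated linear model of limma 3.58.1 (R 4.3.3; functions lmFit and eBayes), run two-sided without a block, adjusted over all probe sets or over all genes. Every SE and adjusted p comes from these fits. The number of arrays, 5 in each group, limits precision, and p-values reflect only how these livers vary. The members and lists were chosen with earlier results of these data known. Named genes were all members, the targeted gene and the genes between Dlk1 and Dio3. Of the 10 on each side, those called and the 3 nearest were named. Up to 6 genes per pathway list and 3 per marker list were taken by p, beside the profiles nearest to Meg3, Rian and Dlk1. Epcam, Afp as a marker, Zhx2, Zbtb20 and the control 1 values of single genes were chosen after their values were seen. So were Lrat, Hgf, Acta2, Ngfr, Dcn, Peg10 and Mcts2, the last so that both imprinted genes that fell are named. On simulated data for 25958 probe sets, the test recovered 21 of 50 changes of 0.5, 35 of 50 of 1, 49 of 50 of 2 and 50 of 50 of 4, and 12 of 167 calls were unchanged probe sets. Same-numbered arrays showed little shared deviation (correlations from -0.179 to 0.151), and the replicate number was kept out of the model. Low correlations do not exclude that the animals were paired.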

Additional observations from a re-analysis of the deposited data

Results flagged for a closer look

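Of 40 groups of 5 values (the 18 probe sets of the cluster and 2 of Dicer1, in each group), 13 had 1 array far from the other 4 by Dixon's criterion at the 95% level, where chance gives about 1 in 20. These groups are not independent, since probe sets of 1 gene read 1 transcript.

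Mutant 5 was the distant array for Meg3 on 1452183_a_at (10.45, nearest mutant 13.13), 1436713_s_at (9.66), 1439380_x_at (9.83), 1452905_at (9.88), 1426758_s_at (9.36), 1428764_at (4.38), 1452906_at (2.66) and 1428765_at (2.33), and for Rian on 1427580_a_at (3.68). In each it was the low one. Control 1 was the distant array, on the high side, for Meg3 on 1439380_x_at (7.46, nearest control 5.69) and 1426758_s_at (6.95, nearest 4.25), and for Rian on 1427580_a_at (3.64, nearest 2.94). Control 5 was high for Mirg on 1440097_at (3.85, nearest 3.43).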

How the results depend on the processing

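Every difference of the 17 noncoding probe sets kept its direction in all settings run. On the probe set with the highest mean of each gene, the difference without 1 array ran from 6.89 to 7.87 for Meg3, 4.01 to 5.73 for Rian, 2.65 to 3.68 for Mirg and 0.27 to 0.55 for Dlk1, and the call of Mirg held in 3 of 10 such fits (adjusted p up to 0.0624). The number of cluster probe sets called higher ran from 8 to 17 without 1 array. It was 10 with probe sets below the median signal left out, where fewer could be tested, and 3 with 1 probe set for each of the 4 genes. It was 16 after quantile normalization and 13 with values raised to the floor. With the replicate block it was 13, and Mirg on 1440097_at (3.04) had an adjusted p of 0.0576. In that fit 7 imprinted genes elsewhere were higher, and 0 MEF2 and CREB genes, 0 adipogenic genes and 0 neighbours. The numbers gave no clear sign of pairing: for 1 of 5 numbers did the arrays correlate best with their own partner. Such correlations cannot exclude pairing. With the mean over a gene's probe sets, 1 adipogenic gene and 0 MEF2 and CREB genes were higher, and 1 imprinted gene and 0 neighbours lower. After quantile normalization 1 of the liver factors was higher. Without 1 array, counts of higher genes ran from 6 to 12 (imprinted), 3 to 4 (Notch), 3 to 5 (imprint control), 0 to 2 (liver factors), 0 to 2 (MEF2 and CREB), 0 to 1 (adipogenic) and 2 to 4 (neighbours), and of lower neighbours from 1 to 3. Among markers they ran from 6 to 7 (hepatoblast), 3 to 8 (stellate), 4 to 9 (Kupffer), 0 to 1 (lymphocyte) and 0 to 1 (bile duct). Probe sets below the floor could not be tested with dim ones left out, so Dlk1 has no value there. The causes of these changes were not tested.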
